A study of Mus musculus with 12 samples.

Results

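The regions described here form a block of mouse chromosome 1 (mm10) from 110 to 125 Mb, and they carry the repressive histone mark H3K9me3. They were chosen from the authors' deposited table of H3K9me3 regions by 2 conditions: a start between positions 110000001 and 125000000, and an annotation to any gene other than Cntnap5a or to no gene. This left 981 of the 50654 listed regions, called members below, and set aside 84 regions of Cntnap5a. The block was selected because H3K9me3 was higher in knockout than in wild-type cells there, so the direction of its members in that contrast is given as a description, with no test.

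The study compared neural progenitor cells with a knockout of Setdb1 (KO, labelled Nestin-KO) with wild-type cells (WT), all from C57BL/6 embryos at E15.5 and all grown as neurospheres from the ganglionic eminence. Native ChIP-seq libraries were made from 100000 nuclei each, with 3 KO and 3 WT animals for H3K9me3 and 3 other animals of each genotype for H3K27ac. Nestin is expressed by neural progenitors, and a knockout through Nestin is made in the progenitors and is carried by their progeny, while a neurosphere culture keeps the cells that divide in it. The H3K9me3 animals were all male in KO, while 2 were female and 1 was male in WT. The leading number of the H3K9me3 titles was shared by 1 KO and 1 WT animal, by 2 WT animals and by 2 KO animals, so it is mixed with genotype as well. The table does not state which animal each of its 3 values per genotype belongs to, so no value within a sex or a title number could be had, and the effects of these on the members cannot be told apart from genotype. The H3K27ac animals were balanced for sex, with 1 female and 2 males per genotype.

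SETDB1 is an enzyme that methylates lysine 9 of histone H3, and trimethylation there (H3K9me3) marks heterochromatin, in which genes and repeats are kept silent. It is known above all for silencing retroviral elements and for holding down gene clusters, and other enzymes, SUV39H1 and SUV39H2, place the same mark. H3K27ac marks active promoters and enhancers, and gene deserts, long stretches of chromosome without protein-coding genes, usually carry little of it.

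The promoters of 4 genes of the block that are named below are printed here as a description. En1, C1ql2 and Ralb are 3 of the genes whose start lies near a member with lower H3K9me3 in KO, and Dpp10, chosen after its values were seen, is the gene with the most members, nearly all of them higher. Each is the RefSeq window (GRCm38.p6) of 300 bases, from 250 before to 50 after an annotated start, 5′ to 3′ on the gene's strand, with every CG in capitals, the dinucleotide at which mammalian DNA is methylated.
En1, chr1:120602237-120602536, plus strand: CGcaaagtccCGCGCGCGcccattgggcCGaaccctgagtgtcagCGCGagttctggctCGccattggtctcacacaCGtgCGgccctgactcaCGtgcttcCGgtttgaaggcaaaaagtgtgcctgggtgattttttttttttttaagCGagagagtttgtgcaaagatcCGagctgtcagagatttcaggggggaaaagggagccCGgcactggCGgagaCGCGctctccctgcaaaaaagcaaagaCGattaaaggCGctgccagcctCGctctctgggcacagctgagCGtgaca
C1ql2, chr1:120340332-120340631, plus strand: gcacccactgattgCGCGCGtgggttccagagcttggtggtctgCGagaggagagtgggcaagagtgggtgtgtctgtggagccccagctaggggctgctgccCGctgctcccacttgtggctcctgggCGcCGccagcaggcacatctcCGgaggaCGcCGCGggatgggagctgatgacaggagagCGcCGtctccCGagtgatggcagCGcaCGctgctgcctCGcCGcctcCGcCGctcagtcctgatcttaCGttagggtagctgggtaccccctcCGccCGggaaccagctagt
Ralb, chr1:119504733-119505032, minus strand: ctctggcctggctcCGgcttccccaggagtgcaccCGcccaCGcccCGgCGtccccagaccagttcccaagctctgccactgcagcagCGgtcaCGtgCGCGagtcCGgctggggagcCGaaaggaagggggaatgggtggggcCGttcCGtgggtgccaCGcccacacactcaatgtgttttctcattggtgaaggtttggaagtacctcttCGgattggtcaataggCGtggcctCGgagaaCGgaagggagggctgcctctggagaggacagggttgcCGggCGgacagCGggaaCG
Dpp10, chr1:124045510-124045809, minus strand: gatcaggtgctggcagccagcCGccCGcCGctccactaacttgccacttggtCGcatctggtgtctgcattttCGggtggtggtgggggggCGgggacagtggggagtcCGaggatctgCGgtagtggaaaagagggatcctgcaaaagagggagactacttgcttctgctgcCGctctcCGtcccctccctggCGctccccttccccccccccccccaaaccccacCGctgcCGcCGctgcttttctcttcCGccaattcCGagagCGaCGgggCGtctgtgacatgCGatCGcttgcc
All 4 windows are rich in CG. They hold 23, 23, 22 and 21 CG in the order shown, while the median over 32851 RefSeq windows of the same length was 7. The GC box (GGGCGG or its complement CCGCCC), a motif bound by SP1-type factors, occurred 2 times in the Ralb window, 2 times in the Dpp10 window, 1 time in the C1ql2 window and 0 times in that of En1, and 35.7% of all windows hold it. TATAAA occurred in none of the 4, against 13.6% of all windows (both strands searched). No H3K9me3 member overlapped any of the 4 windows. A match to letters is a description of the window and not a binding site. The members themselves are given by position only.

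Most members had more H3K9me3 in KO than in WT. In the authors' deposited table, H3K9me3 was listed as higher at 851 members (86.8%) and as lower at 130 (13.3%) at an adjusted p of 0.05 or less, while over all listed regions 28.9% were higher and 71.1% lower. The libraries are bulk, so more mark per cell and more cells with the mark cannot be told apart. The block held 1.94% of the listed regions and 5.82% of all those listed as higher. The median log2 fold change of the 851 higher members was 0.90 (quartiles 0.76 and 1.09, highest 2.40), and that of the 130 lower members was -0.92 (lowest -2.32). Because the contrast chose the block, the excess over the whole table is a restatement of the choice.

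The values of the single animals are those that chose the block, so their separation is a description too. They overlapped at a part of the members. Signal had a floor in the group where it was higher. No higher member had KO values under 30.57, 22.67 and 43.7 in the order listed, and no lower member had WT values under 37.23, 39.37 and 31.9. The median normalised signal per higher member was 50.95, 48.4 and 59.7 for the 3 KO values in the order listed. The WT medians of the same members were 24.8, 30.4 and 31.9. All 3 KO values lay above all 3 WT values at 666 members (67.9%, against 20.2% of all listed regions), and the values of the genotypes overlapped at the other 185 higher members. At the lower members the KO medians were 20.4, 29.7 and 43.7 and the WT medians 59.4, 63.97 and 57.3. All 3 KO values lay below all 3 WT values at 98 members (9.99%, against 54.2% of all listed regions).

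KO values varied more at lower members and WT values more at higher members, as they did over the whole table. The floor given above can narrow the spread in the group with more signal, so the spreads are not read as a trait of KO. The median coefficient of variation over the 3 KO values was 43.8% at lower and 21.2% at higher members, and over the 3 WT values it was 13.5% and 29.8%. Over all listed regions these were 56.4% and 21.7% in KO and 15.3% and 26.9% in WT. The third listed KO value was the highest KO value at 95 of the 130 lower members (73.1%) and at 556 of the 851 higher ones (65.3%). Over the whole table those shares were 81.9% of lower and 53.9% of higher regions, so the third listed KO value stood apart in the same way outside the block. As listed, its medians are above the other KO medians in both directions, and its floor at higher members, 43.7, was also above theirs. This order depends on the scaling. With each value scaled by the median ratio over all listed regions (median-ratio scaling), the KO medians were 92.5, 70.7 and 53.4 at higher members. At lower members they were 37.0, 43.3 and 39.1, so the third value was then not the highest in either direction.

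**Figure D1:**
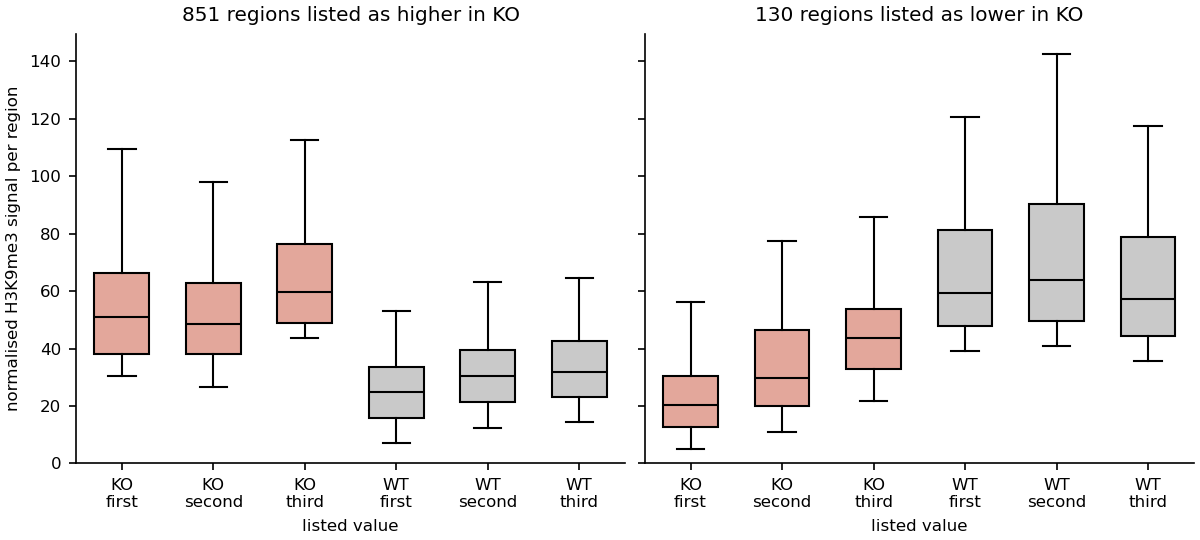
Normalised H3K9me3 signal per region (vertical axis) at each of the 3 listed KO and 3 listed WT values, for the 851 members higher in KO (left) and the 130 lower in KO (right). Boxes span the quartiles with the median as a line and whiskers reach the 5th and 95th percentiles; at higher members the KO medians lie between 48.4 and 59.7 and the WT medians between 24.8 and 31.9.

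A fit that uses the spread between animals is given as a description too, since it reads the values that chose the block. limma on log2(value + 1) with Benjamini-Hochberg adjustment over all 50654 regions called 56 members higher (5.71%, against 1.24% of all regions) and 17 lower (1.73%, against 14.9%), and nothing is read from the excess of higher calls. The number of higher calls among members was 0 when the first or the second KO value or any WT value was left out, and 219 without the third KO value. The whole table moved in the same way. The fits with 0 members called no region in either direction, apart from 10 higher without the third WT value, and the fit without the third KO value called 2986 higher and 30932 lower. In the fits with 0 calls among members, 238 to 402 members were higher at an unadjusted p under 0.05. The same count over all listed regions is not given, and the members had been listed for a difference over these values. Nothing is therefore read from this range. Whole reads could be recovered from the steps of the values, and the median member held 19, 107 and 68 reads in KO and 15, 40 and 47 in WT, so the counting error of a median member ranged from 9.67% to 25.8%.

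Members were short and closely spaced. Their median length was 1300 bases and the longest spanned 6500, and together they covered 1421 kb, or 9.47% of the block. The median distance between neighbours was 5.6 kb. Neighbours had the same direction in 89.6% of 980 pairs, against 90.98% over all listed regions. Such agreement also depends on how uneven the directions are, and 86.8% of members but 28.9% of all listed regions were higher. The 2 shares of pairs therefore do not compare how the directions cluster. The authors' enrichment (a ratio whose reference the sources used here do not give) had a median of 1.88 in KO and 0.84 in WT at higher members, and it was under 1 in WT at 556 of the 851. At lower members it was 1.05 in KO and 1.77 in WT. Most higher members therefore had a WT signal below that reference and a KO signal above it. Over all listed higher regions the medians were close to these, at 1.89 in KO and 0.91 in WT. Regions listed as higher were chosen for this contrast, so nothing is read from the enrichment about the members.

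Higher and lower members lay in different parts of the block. By the authors' classes 818 members (83.4%, against 16.2% of all listed regions) were in gene deserts, and 758 of these were higher and 60 lower. That is 92.7% higher, while 36.4% of all listed gene-desert regions were higher. These classes differ from RefSeq gene spans, by which 115 members lay inside genes. In the RefSeq span of Dpp10, 58 members had no gene symbol, 57 of them higher. The one at chr1:124062201-124063300 was classed as gene desert, so the gene-desert counts include sequence inside Dpp10. Of 103 members in other intergenic sequence 55 were higher (53.4%, against 29.98% of all such regions), and of 55 members in gene bodies 38 were higher (69.1%, against 17.1%), 37 of them in Dpp10. All 5 members in the outer promoter class, which reaches 3 kb from a gene start, were lower, whereas 44.2% of the 1232 listed regions of that class were higher. The block is poor in genes, with 30 protein-coding RefSeq genes or 2.0 per Mb, against 6.51 per Mb on the rest of chromosome 1.

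**Figure D2:**
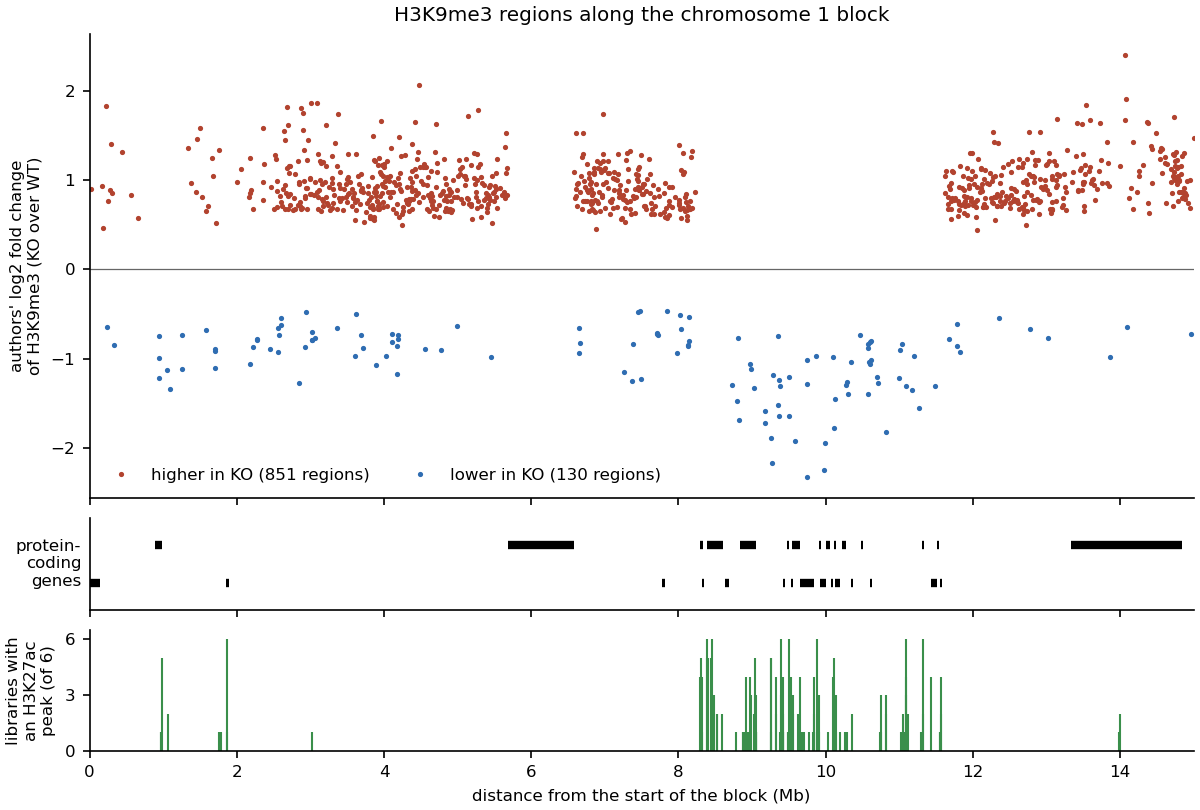
Authors' log2 fold change of H3K9me3 (KO over WT) for each of the 981 members against its distance from the start of the block in Mb (top), with the spans of the 30 protein-coding genes (middle, 2 heights only to keep neighbours apart) and the number of the 6 H3K27ac libraries with a peak in each merged H3K27ac region (bottom). Higher members fill the stretches without genes, the members between about 9 and 11 Mb from the start are all lower, and most H3K27ac regions lie in the part with genes.

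Most of the higher members, 683 of 851, lay in 3 stretches without protein-coding genes, each over 1 Mb. This length was set after the values were seen. The stretch between Dsel and Cntnap5a (chr1:111865053-115684736, 3.82 Mb) held 396 members, of which 362 were higher. Their median KO values were 48.4, 48.4 and 58.4 and their median WT values 26.6, 31.2 and 34.1. The stretch between Cntnap5a and B020011L13Rik (chr1:116587324-117781134, 1.19 Mb) held 149 members, 137 of them higher. Its medians were 56.0, 50.6 and 62.2 in KO and 30.1, 33.6 and 36.97 in WT. Between Ddx18 and Dpp10 (chr1:121567981-123332137, 1.76 Mb) 184 of 191 members were higher, with medians of 50.95, 51.0 and 58.8 in KO and 26.6, 32.0 and 34.1 in WT. In each stretch every KO median lay above every WT median, and the median log2 fold changes were 0.85, 0.86 and 0.86. Of the 736 members in the 3 stretches 92.8% were higher, against 38.1% of the 8524 listed regions in all such stretches of the genome.

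**Figure D3:**
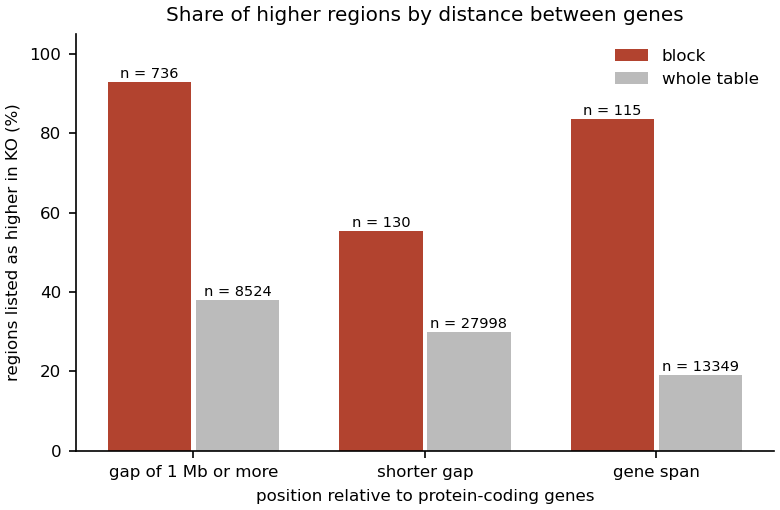
Percentage of H3K9me3 regions listed as higher in KO (bars from 0) for members of the block and for the whole table, split by position in a gap of 1 Mb or more between protein-coding genes, in a shorter gap, or inside a gene span; the number above each bar is the number of regions. In the block the shares were 92.8%, 55.4% and 83.5%, and over all listed regions 38.1%, 29.9% and 19.1%. Of the 115 gene-span members of the block, 96 lay in the span of Dpp10 and 94 of these were higher, so the 83.5% is mostly 1 gene.

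The longest run of higher members held 77 in a row (chr1:116677401-117252100) and the longest run of lower members 53 (chr1:118721401-121484500). The latter lies in the part of the block where genes are crowded. Between B020011L13Rik and Ddx18 (chr1:117781135-121567980, 3.79 Mb, 25 protein-coding genes) 38 of 99 members were higher and 61 lower, with a median log2 fold change of -0.83. In the windows from 119 to 120 Mb and from 120 to 121 Mb, 0 of 20 members were higher in each, with median log2 fold changes of -1.56 and -1.13. In the other 13 windows of 1 Mb between 60.0% and 98.5% of members were higher. Over the 15 windows, which share libraries and neighbours, the share of higher members and the number of protein-coding genes had a Spearman rho of -0.643, given as a description.

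**Figure D4:**
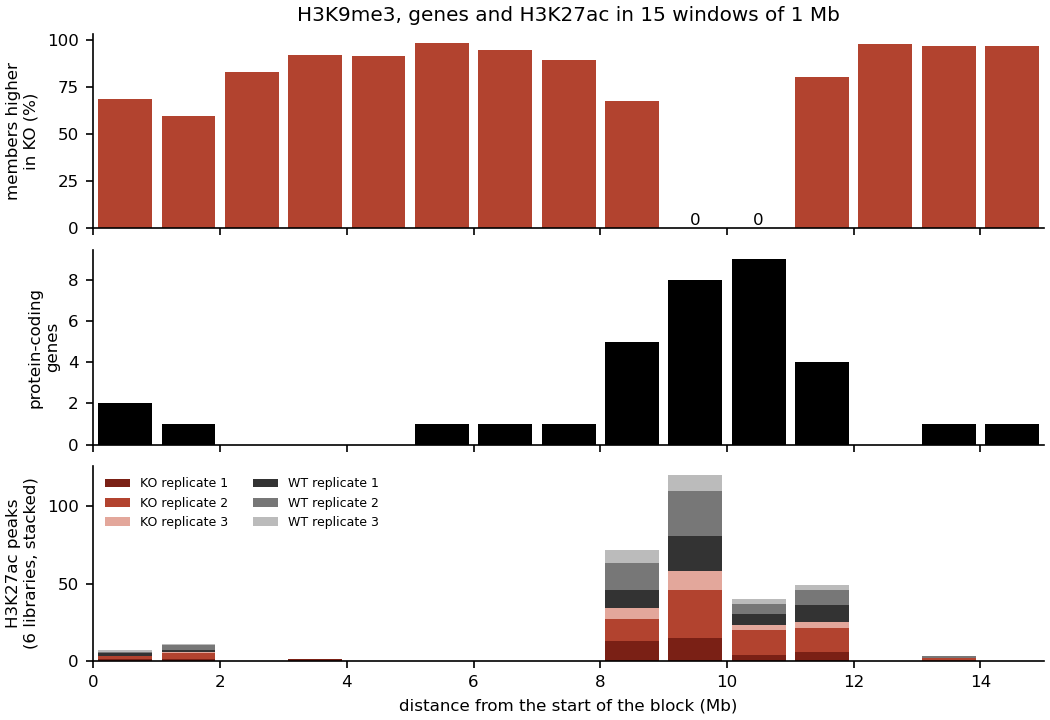
Percentage of members higher in KO (top), number of protein-coding genes (middle) and number of H3K27ac peaks stacked over the 6 libraries (bottom) in each of the 15 windows of 1 Mb, against distance from the start of the block. The 2 windows with 0% higher members hold 8 and 9 genes and 120 and 40 peaks.

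Among genes for neuronal membrane proteins, Dpp10 carried most of the block's gene-body members. Dpp10 encodes a subunit that joins Kv4 potassium channels and changes their gating, and it lacks the peptidase activity of its family. The authors annotated 38 members to it, spread from 123351101 to 123994300, of which 37 were higher (log2 fold changes 0.65 to 1.84, median 1.07). All KO values lay above all WT values at 28 of them. The same held at 666 of the 851 higher members of the block, so this separation does not set Dpp10 apart. Over the whole table it held at 1361 of 11902 gene-body regions, of which 2030 were higher. The median values over the 37 higher Dpp10 members were 40.8, 40.6 and 54.6 in KO and 14.2, 23.0 and 21.8 in WT. The strongest Dpp10 member (chr1:123608701-123612100, gene body) had KO values of 101.9, 84.6 and 158.9 and WT values of 49.6, 46.8 and 79.8, and its log2 fold change was 0.97. Its lowest KO value was above its highest WT value. The largest fold change in the gene, 1.84 on the log2 scale, was at chr1:123541901-123543200, with 38.2, 40.1 and 63.0 in KO and 7.09, 23.0 and 9.42 in WT. The lower member of Dpp10 (chr1:123861601-123863300) had 20.4, 27.9 and 52.1 in KO against 74.5, 69.7 and 54.4 in WT, a log2 fold change of -0.98.

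The RefSeq span of Dpp10 is longer than the stretch that the authors annotated. It covers 1.51 Mb (chr1:123332138-124845815) and contained 96 members, 94 of them higher, of which 58 had no gene symbol in the authors' table. Members without a symbol lay on the far side of the printed Dpp10 window, so higher H3K9me3 was found both upstream and downstream of it. After the end of the span a further 13 members reached the end of the block, 12 of them higher.

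C1ql2 encodes a secreted C1q-like protein of synapses, and its member went the other way. It lies at chr1:120338601-120339600 in the outer promoter class, -1482 bases from the start printed above. Its values were 15.3, 13.1 and 26.9 in KO and 42.5, 39.4 and 31.9 in WT, a log2 fold change of -1.04, without overlap. Htr5b, a serotonin receptor gene of the same list, had no member. For Cntnap5a, a neurexin-family adhesion gene between the first and the second gene-free stretch, 79 of its 84 regions were higher and 5 lower, with a median log2 fold change of 1.00, against 0.85 and 0.86 in the stretches on its sides.

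Of 4 genes of patterning and signalling 2 had members, and these 4 members were all listed as lower and stayed below 0 under median-ratio scaling. Lower was the usual direction outside the block, at 71.1% of all listed regions and at 9870 of 11902 in gene bodies, so 4 of 4 does not set these genes apart. En1 encodes a homeobox factor of the midbrain and hindbrain. Its member (chr1:120599001-120600900), -2537 bases from the start, had 17.8, 45.8 and 52.95 in KO and 70.9, 80.4 and 91.4 in WT, with a log2 fold change of -1.06. Gli2, a transcription factor of Hedgehog signalling, had 3 gene-body members, all lower, at log2 fold changes from -1.33 to -1.06. The strongest of these (chr1:118979101-118981000) had 15.3, 35.3 and 55.5 in KO and 69.1, 87.8 and 72.5 in WT, without overlap. At chr1:119027101-119028800 the KO values were 0, 14.4 and 63.0 and the WT values 65.6, 71.4 and 57.3, so here the third KO value reached into the WT range. Inhbb and Tfcp2l1 had no member.

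Cadherins, the calcium-dependent adhesion proteins, split by position. The member of Cdh7 (chr1:110014001-110015000), which is also the first member of the block, had 30.6, 39.2 and 45.4 in KO and 23.1, 26.3 and 12.3 in WT, a log2 fold change of 0.90. Cdh19, less than 1 Mb further on, had 3 members, all lower as listed (-1.22 to -0.75), of which 1 turned to 0.09 under median-ratio scaling. Its strongest member (chr1:110939301-110940900) had 22.9, 29.7 and 48.8 in KO and 79.8, 66.4 and 54.4 in WT. Cdh20, the third cadherin gene of the list, lies outside the block and had no member. Dsel, an enzyme gene of dermatan sulfate synthesis at the edge of the largest gene-free stretch, had none either.

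Of 17 genes of a mixed list, mainly of the cytoskeleton and housekeeping, 6 had members. Actr3 of this list lies outside the block. All 9 of these members were lower, also under median-ratio scaling, which again is the usual direction of listed gene-body regions. The Steap3 member and a Ralb member were in the outer promoter class, where 688 of 1232 listed regions were lower. Ptpn4, a protein tyrosine phosphatase gene, had 3, among them the member with the lowest log2 fold change of the block. That one (chr1:119738101-119743100, 5000 bases, gene body) had 5.09, 35.8 and 135.3 in KO and 248.2, 354.3 and 277.7 in WT. Its log2 fold change was -2.32, and even the highest KO value was below the lowest WT value. The SD was similar in the genotypes, but relative to the mean the KO values spread far more (58.7 ± 68.1 in KO, 293.4 ± 54.8 in WT, mean ± SD). Ralb, which encodes a small GTPase, had 2 members, and the one nearer the printed window (chr1:119501401-119503000) had 15.3, 22.7 and 43.7 in KO and 49.6, 62.3 and 77.6 in WT. Dbi, the gene of the acyl-CoA binding protein, had 5.09, 16.6 and 39.5 in KO and 53.2, 75.5 and 81.2 in WT at chr1:120113801-120115300, a log2 fold change of -1.78. Epb41l5, a band 4.1 family gene, had a member at -1.92 and Steap3, a metalloreductase gene, at -1.29. At the Ccdc93 member (chr1:121482601-121484500) the KO values of 0, 54.9 and 143.7 overlapped the WT values of 72.7, 263.3 and 153.0.

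Outside these lists Cfap221, a gene of ciliary axonemes, had 2 members, at log2 fold changes of -2.25 and -1.94. The second of these (chr1:119989701-119991300) had 15.3, 17.0 and 19.3 in KO and 65.6, 77.9 and 55.1 in WT, which is among the tightest separations in the block. Celrr, a long noncoding RNA gene near En1, had 25.5, 29.7 and 73.96 in KO and 101.0, 100.9 and 117.5 in WT (chr1:121088601-121091100). In all, 60 members carried 15 gene symbols. Dpp10 and Cdh7 held all of the higher ones, and the other 13 genes held only lower ones as listed.

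The strongest members without a gene symbol included both directions. The longest and strongest (chr1:118145201-118151700, 6500 bases) had 211.4, 225.4 and 194.2 in KO and 358.1, 374.0 and 369.8 in WT, a log2 fold change of -0.80 with little spread in either genotype. Under median-ratio scaling that value became 0.10. The second longest gene-free member (chr1:114582501-114587100) had 180.9, 149.1 and 219.4 in KO and 58.5, 120.6 and 108.0 in WT, and its log2 fold change was 0.94. The largest log2 fold change of the block, 2.40, was at chr1:124062201-124063300, with 33.1, 33.1 and 59.7 in KO and 5.32, 15.6 and 2.90 in WT. It lies upstream of the printed Dpp10 window but inside the RefSeq span of Dpp10.

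Another scaling changed the listed direction of some lower members. Scaling each value by the median ratio over all listed regions raised the log2 fold changes by 0.79 in the median. An upward shift can only turn lower members: 46 of the 130 then had a value above 0, so 897 members (against 851) were higher.

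The pattern did not stop at the ends of the block in the same way on both sides. The last listed region before it (chr1:109899801-109900900) had a log2 fold change of 2.17, and the next after it (chr1:125010801-125012000) had 1.02. In the 10 Mb before the block 319 of 409 regions (78.0%) were higher, and in the 10 Mb after it 32 of 165 (19.4%). The part before the block resembled it, with 77.3% of its regions in gene deserts (83.4% in the block) and a median log2 fold change of 0.82. The make-up of the block is therefore not particular to it. The blocks with mostly higher regions on other chromosomes had a different make-up. On chromosome 7 (5 to 35 Mb) 81.8% of 2499 regions were higher, with 0% in gene deserts, and on chromosome 14 (40 to 45 Mb) 92.4% of 591 with 4.74% in gene deserts. On chromosome 17 (35 to 40 Mb) 81.0% of 332 were higher. The median log2 fold changes there were 0.66, 0.72 and 0.78, against 0.85 here, and these values were not compared by a test because each block was chosen on the contrast.

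H3K27ac, which played no part in the choice of the block, had overlapping peak numbers in the 2 genotypes. The KO libraries had 41, 84 and 27 peaks in the block and the WT libraries 56, 68 and 27, or 50.7 ± 29.7 against 50.3 ± 21.1 (SD, n = 3 each, exact permutation test, two-sided, p = 1.0). As a share of all peaks of a library these were 0.156%, 0.197% and 0.236% in KO and 0.176%, 0.182% and 0.217% in WT (exact permutation test, two-sided, p = 1.0, smallest possible 0.1). The number of peaks differed between replicates far more than between genotypes, since both replicates numbered 3 had short lists (11446 and 12446 peaks in all, against 26344 to 42651 in the others). Replicate 1 of each genotype shares a leading title number and sex, and so do the other 4 libraries. In replicate 1 the KO share was below the WT share (0.156% against 0.176%), and the other 2 KO shares (0.197% and 0.236%) overlapped the 2 WT shares (0.182% and 0.217%). The depth of the H3K27ac libraries is not known from the peak lists.

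The block as a whole was poor in H3K27ac in every library. Peak density was 2.73, 5.60 and 1.80 per Mb in KO and 3.73, 4.53 and 1.80 per Mb in WT, against 8.77, 15.2 and 3.69 and 10.9, 13.4 and 4.05 per Mb on the rest of chromosome 1. The log2 ratio was -1.41 ± 0.25 (SD, n = 6), lower in 6 of 6 libraries (exact sign-flip permutation test, two-sided, p = 0.03125, the smallest possible). Per protein-coding gene the block was not poorer. KO replicate 1 had 1.37 peaks per gene in the block and 1.35 on the rest of chromosome 1, and WT replicate 2 had 2.27 and 2.06, and the block's value was the higher in all 6 libraries (not tested).

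**Figure D5:**
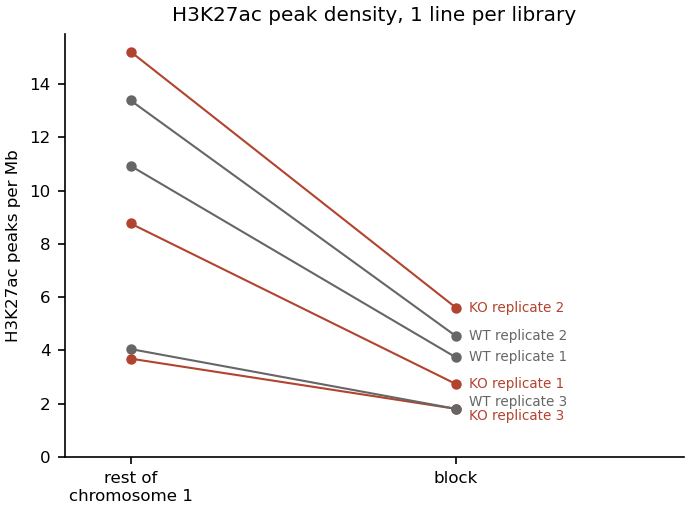
H3K27ac peaks per Mb on the rest of chromosome 1 and in the block, with 1 line for each of the 3 KO and 3 WT libraries. All 6 lines fall, to between 1.80 and 5.60 peaks per Mb in the block.

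Most H3K27ac regions of the block lay in gene spans or in the shorter gaps. Peaks of the 6 libraries merged into 116 regions, 66 of them in gene spans, 47 in gaps under 1 Mb and 3 in the long gaps. In 7 of the 15 windows of 1 Mb no library had a peak, and over the 15 windows peak number and share of higher members had a Spearman rho of -0.778 (a description, as above). Of the 116 regions 8 were present in all libraries and 51 in 1 library, and 0 were in all KO and no WT libraries or the reverse. Among those in all 6 were a region in Dsel (chr1:111864154-111864925, the authors' fold enrichment 10.7, 6.52 and 6.38 in KO and 7.87, 7.73 and 4.61 in WT) and Insig2, a gene of sterol sensing (chr1:121327305-121328524). Clasp1, which encodes a microtubule plus-end protein, had 2 such regions within its span. These genes had no member.

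Only 4 members overlapped an H3K27ac peak by at least 1 base, 0.408% against 2.38% of all listed regions, and all 4 were lower in KO. The Dbi member did so in 4 libraries, the member at chr1:120818401-120819800 in 2 libraries and those of Celrr and at chr1:113016801-113018000 in 1 each. The last of these had a log2 fold change of -0.79, which became 0.15 under median-ratio scaling. At the second, KO values of 5.09, 13.95 and 30.3 faced WT values of 56.7, 54.95 and 62.4. Gli2 had H3K27ac regions close to its members without touching them, the nearest 0.755 kb from the member at 119027101.

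H3K27ac peaks overlapped the printed type of window for a minority of the genes that had one. No such share over all RefSeq windows is given here, so the counts describe the block only. A window covers the start itself, so a peak beside it is not counted. Clasp1 and Epb41l5, which had H3K27ac regions, had no window. RefSeq gave 31 windows for 23 of the 30 protein-coding genes, and 15 of these windows hold a GC box. A peak overlapped no window in any library for 13 of the 23 genes, among them En1, C1ql2, Ralb and Dpp10, whose sequences are given above, and for 0 genes was a window overlapped in all 6. Ralb had a region in all 6 libraries inside the gene (chr1:119503638-119504672), which ends just short of its window. Ptpn4, whose window holds 44 CG, had a peak on it in 4 libraries, and Gli2 in 1.

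As a check of the labels, Setdb1 itself overlapped 0 listed H3K9me3 regions and had an H3K27ac peak in or within 1 kb in 3 KO and 2 WT libraries, which does not test its deletion. Of the progenitor markers Nes and Pax6 had such a peak in 6 of 6 libraries, Vim in 5, Sox2 in 4 and Hes5 in 2. Of the ganglionic eminence markers given here Dlx1 had one in 2 libraries, while Dlx2, Dlx5, Dlx6 and Gsx2 had none in any library. Neurod6 and Tbr1, of cortical excitatory neurons, had none. Ptprc, of microglia and blood, had one in 2 libraries and Cx3cr1 and Hbb-bt none, and of the vascular genes Pecam1 had one in 6 and Cdh5 none. The part of other cells in the members' values was not tested.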

How the data were processed

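Native ChIP-seq of H3K9me3 and H3K27ac was analysed from the deposited files (mm10; Bowtie2 2.3.4.3 and MACS2, per the submitters' processing notes). For H3K9me3 the authors deposited, per the file headers, 1 table with 3 normalised signal values per genotype, their means, an enrichment ratio, a log2 fold change (KO over WT), a p-value and an adjusted p-value. Which test gave the p-values is not known from these sources. The H3K27ac files are peak lists that the authors deposited for each library, with a fold enrichment and −log10 q-values, used only within a list.

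The members and gene lists were chosen with earlier results of these data known. limma 3.58.1 (R 4.3.3), tested on simulated data, was fitted to log2(value + 1) of all listed regions with a mean-variance trend. The regions had been selected on the same animals, which its adjusted p-values do not allow for. Low values were whole multiples of 1 read (100.0% of values at each listed position, within 0.1 reads), and limma-voom on these reads was an alternative. Other alternatives were thresholds, pseudocount, scaling, overlap rules and left-out values. Named members were the strongest of each of the 12 genes with the most members, the strongest without a gene, the strongest lower, the longest, those under an H3K27ac peak and those at the ends. Others were named after their values were seen. Gene spans and sequences came from RefSeq (GRCm38.p6). Permutation tests were exact (scipy 1.17.1), over 3 animals per genotype and mark. 1 of the fixed cell type markers is not reported here.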

Additional observations from a re-analysis of the deposited data

How the results depend on the processing

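The direction of the members held under most settings, while the number that passed a test did not. Of 851 higher and 130 lower members, a log2 fold change of at least 1 in size left 302 and 53. Leaving out any value left the count of higher members at 851. All members had been listed for a difference over these same values, so that count had little room to change and is not support. The median log2(value + 1) difference of 0.87 became 1.68 under median-ratio scaling, and 0.76 to 0.94 without 1 value. limma's count of higher members, 56, was 266 with a pseudocount of 8, 845 under median-ratio scaling and 478 with limma-voom. Without 1 listed value it ranged from 0 to 219. Lower members numbered 17, 50, 6 and 90 in the same order. Over the whole table the higher and lower calls were 627 and 7551, then 3018 and 20217, 14041 and 3023, and 7133 and 29384, so the counts of members moved with those of the table. The difference in the share of H3K27ac peaks, 0.00456 percentage points (KO minus WT), ranged from -0.0153 to 0.0248 without 1 library, on both sides of 0. The density ratio of -1.41 ranged from -1.48 to -1.35 without 1 library, where 5 libraries allow no p below 0.0625. The 4 members under an H3K27ac peak became 1 where at least 50% of the peak had to overlap, 2 with a peak in 2 libraries, and 3 to 4 without 1 library. Stretches of 0.5 Mb or more, a length chosen after seeing the data, gave 90.4% higher members in place of 92.8%. The causes of these shifts were not tested. No paired analysis was possible because the listed H3K9me3 values carry no replicate number from the labels. Reads per member limit the first KO and the first WT value most.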
